A study of Mus musculus with 6 samples.

Results

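Cells that have stopped dividing for good often secrete a mixture of proteins into their surroundings, known as the senescence-associated secretory phenotype. It holds cytokines and chemokines that call in and steer immune cells, proteases that cut the extracellular matrix together with the inhibitors that hold them back, proteins that bind insulin-like growth factors (IGF), and growth factors that act on neighbouring cells. Many of these genes are read by the transcription factors NF-κB, AP-1 and C/EBPβ, and several of their mRNAs are short-lived through AU-rich elements. In the brain such factors are mostly known from glia and vascular cells.

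The genes described here are 38 secretory genes taken from a list of symbols, out of 21878 gene symbols with RNA values. The rule is that list of symbols and uses no measured value, although the list was drawn up with earlier results of these data known. They form 7 families: 7 cytokines and colony-stimulating factors, 7 chemokines, 4 genes of plasminogen activation, 5 matrix metalloproteinases, 3 tissue inhibitors of metalloproteinases (TIMPs), 6 IGF-binding proteins and 6 growth factors. One of them, *Plaur*, encodes a receptor that sits on the cell surface and can be shed.

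HT22, an immortalized mouse line made from hippocampal neurons, was kept without Al (control group) or with 120 µM aluminum maltolate for 24 h (Al group). Each group had 3 libraries, and both groups were the same unmodified line. The study lists a control in medium alone, named Control, and a control with maltol, the organic partner of Al in the compound. It calls the sequenced group control (C) and does not otherwise say which was sequenced. RNA came from the input libraries of a MeRIP-seq experiment, that is, fragmented RNA before the pull-down of methylated fragments, made with a stranded mRNA kit.

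Values are FPKM, the reads of a gene scaled to its length in kilobases and to the size of the library, so levels can be compared between genes. The libraries are written control 1 to 3 and Al 1 to 3. For comparisons between libraries each FPKM was divided by a size factor, the library's median ratio to the average library over well-expressed genes, and the result is called scaled FPKM. The library totals behind the FPKM were 38059492, 43422481 and 44556768 reads without Al and 26670978, 21857904 and 21125631 with Al, so that 1 read weighed more in Al libraries. The size factors were 1.17 to 1.20 without Al and 0.799 to 0.929 with Al. The 50 genes with the highest FPKM held 18.0% to 19.4% of the summed FPKM in control libraries and 30.006% to 32.5% in Al libraries, and the scaling of the libraries therefore bears on every value of a small size. With the size factors the median over the 12889 tested genes was 0.03 on the log2 scale. That median was −0.43 with FPKM as deposited and −0.72 after scaling each library to the same sum, and of all called genes 51.9%, 24.6% and 14.5%, respectively, were higher with Al. Fold changes are therefore given relative to the typical gene, and each direction that turns under another scaling is named with its gene.

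The label of the cells was checked against marker genes. Of 9 neuron markers, 6 had a mean under 0.1 FPKM, and *Snap25* and *Nefm* were listed at 0 in every library. *Rbfox3*, the gene of NeuN, reached at most 0.00969 scaled FPKM, whereas *Tubb3*, a tubulin of neurons, lay between 3.01 and 4.96. The 6 fibroblast and mesenchymal markers summed to 3058 to 4399 scaled FPKM in control libraries and 4880 to 6567 in Al libraries, with *Col1a1*, *Col1a2* and *Vim* as the main parts. The defining genes of mature neurons were thus absent or close to it, and markers of mesenchymal cells were high. In bulk RNA, fewer cells of a type and less RNA per cell cannot be told apart.

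A gene was tested with limma on log2(scaled FPKM + 0.1) when its mean was at least 0.1 FPKM, and called when the Benjamini-Hochberg adjusted P over all tested genes was under 0.05 and the log2 fold change was over 0.58 in size. The p-values measure only the spread between 3 libraries a group, which the study describes as biological replicates and the labels do not describe further. Of the 38 secretory genes, 20 had a mean of at least 1 FPKM, 6 lay between 0.1 and 1, and 12 lay under 0.1 and were not tested. Of the 26 tested, 11 were called higher with Al, where 25.5% of all tested genes were, and 2 were called lower, where 23.7% of all tested genes were. Those higher were *Il6*, *Lif*, *Csf1*, *Cxcl1*, *Plaur*, *Mmp3*, *Timp1*, *Timp2*, *Igfbp6*, *Ereg* and *Hbegf*, and those lower were *Timp3* and *Tgfb1*. The values of the 3 Al libraries lay clear of the 3 control values in 17 of the 26 (15 higher and 2 lower), compared with 68.1% of all tested genes, so a lack of overlap was common in this experiment. The median log2 fold change over the 26 was 0.62. The 38 genes together summed to 1044, 1015 and 1027 scaled FPKM in control libraries and to 2606, 2334 and 1702 in Al libraries, and *Timp2*, *Mmp14*, *Igfbp6*, *Csf1*, *Igfbp4* and *Mmp2* made up 79.0% to 85.3% of the sum in every library. As a share of all FPKM of a library, which needs no size factor, the 38 genes held 0.341%, 0.325% and 0.312% in control libraries and 0.435%, 0.399% and 0.369% in Al libraries, a far smaller difference.

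**Figure D1:**
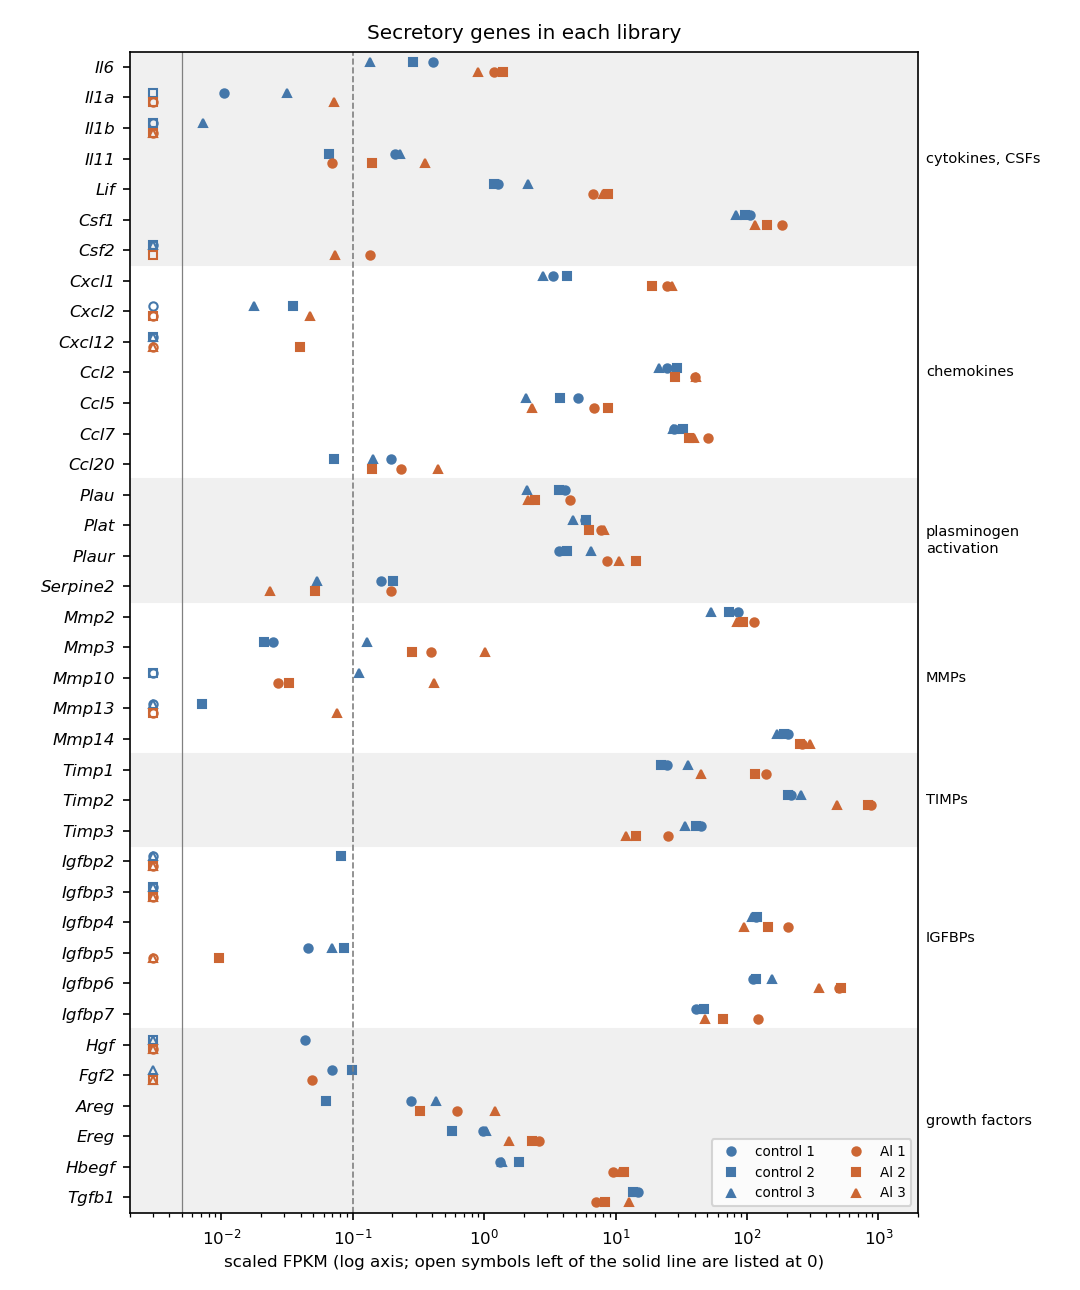
Scaled FPKM (log axis) of the 38 secretory genes, one row a gene, grouped by family, with control libraries in blue, Al libraries in orange and a symbol for each library number; open symbols left of the solid line are listed at 0, and the dashed line marks 0.1, the level that the mean FPKM had to reach for a test. The 5 genes with a mean of at least 100 FPKM and the 12 genes under 0.1 lie at opposite ends of the axis, and the Al points of *Lif*, *Cxcl1* and *Hbegf* lie clear to the right of the control points.

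The cytokines and colony-stimulating factors held 3 genes that rose out of 4 tested, and 3 that were too low for a test. This and the family counts below stand beside the 25.5% of all tested genes called higher and the 23.7% called lower. *Lif*, a cytokine of the interleukin-6 family that acts on stem cells, glia and neurons, stood at 1.27, 1.19 and 2.14 scaled FPKM in control libraries and at 6.71, 8.68 and 7.97 in Al libraries. Every Al value was above every control value by a wide gap. This was a log2 fold change of 2.31 ± 0.23 (SE, limma, n = 3 each, adjusted P = 5.47e-05), or 4.95-fold, and 1.55 at equal library sums.

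*Il6*, the cytokine most often named with the secretory phenotype, was present at a far lower level. Its scaled FPKM was 0.410, 0.285 and 0.135 without Al and 1.19, 1.38 and 0.894 with Al. These values rested on 21, 17 and 8 reads in control libraries and on 29, 28 and 20 in the smaller Al libraries. The groups did not overlap, and the log2 fold change was 1.79 ± 0.34 (SE, limma, adjusted P = 0.00177), with a range of 0.76 (pseudocount of 1) to 2.15 (voom on reads) over the alternatives. *Il11*, a cytokine of the same family, had 0.0662 to 0.228 scaled FPKM without Al and 0.0696 to 0.353 with Al, from 3 to 24 reads a library. Its groups overlapped in part, the log2 fold change was 0.042 ± 0.47 (limma, adjusted P = 0.943), and the sign turned under 3 scalings of the libraries.

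*Csf1*, the growth and survival factor of macrophages and microglia, was the highest of this family and stood among the 5 secretory genes with a mean of at least 100 FPKM. It measured 105, 95.8 and 81.998 scaled FPKM in control libraries and 185, 143 and 115 in Al libraries. The lowest Al value lay just above the highest control value. With a log2 fold change of 0.63 ± 0.18 (limma, adjusted P = 0.0153), the call was lost when control 3 or Al 1 was left out (0.52 and 0.45), fell to 0.14 with FPKM as deposited and to 0.0034 under quantile normalization, and turned to −0.16 when each library was scaled to the same sum. The receptor of this factor, *Csf1r*, was close to the limit of the test, at a log2 difference of −0.062 (limma, adjusted P = 0.909).

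Of the remaining 3 cytokines, *Il1a* and *Il1b*, the interleukin-1 genes that can start the secretory program, were next to absent. *Il1a* had 2, 0 and 7 reads in control libraries and 0, 0 and 6 in Al libraries, and *Il1b* was above 0 in control 3 alone, at 0.00848 FPKM. *Csf2*, the gene of GM-CSF, had no read in control libraries and 4, 0 and 2 in Al libraries.

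Of 5 tested chemokines, 1 was called. *Cxcl1*, which attracts neutrophils through the receptor CXCR2, measured 3.31, 4.23 and 2.79 scaled FPKM without Al and 24.4, 18.8 and 26.9 with Al. No control value came near the Al values. Its log2 fold change was 2.73 ± 0.18 (SE, limma, adjusted P = 1.27e-05), or 6.64-fold, and it ranged from 1.96 to 2.89 over all alternative settings. *Cxcl2*, the neighbouring gene and a ligand of the same receptor, lies 10.8 kb away on chromosome 5 (RefSeq, GRCm38.p6), and had 0, 2 and 1 reads in control libraries and 0, 0 and 1 in Al libraries. The pair thus differed in level in every library.

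*Ccl2* and *Ccl7*, which attract monocytes through CCR2, lie 8.26 kb apart on chromosome 11 and were the most abundant chemokines. *Ccl7* stood at 28.0, 32.7 and 27.2 scaled FPKM in control libraries and at 50.4, 36.3 and 39.6 in Al libraries. *Ccl2* stood at 24.7, 29.3 and 21.2 and at 40.1, 28.1 and 41.2. The groups of *Ccl7* did not overlap and those of *Ccl2* did. Both had adjusted P values under 0.05 (limma, 0.0113 and 0.025) with log2 fold changes of 0.51 ± 0.14 and 0.53 ± 0.17, short of the size required for a call. When each library was scaled to the same sum the values were −0.27 and −0.25, and without Al 2 they were 0.62 and 0.71 and both were called.

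*Ccl5*, a chemokine of T cells and monocytes, measured 5.15, 3.78 and 2.09 scaled FPKM without Al and 6.79, 8.69 and 2.30 with Al. Al 3 lay at the low end of the control range, and the log2 fold change was 0.57 ± 0.48 (limma, adjusted P = 0.326). Without Al 3 it was 1.14 (adjusted P = 0.014) and the gene was called, whereas it was 0.091 with FPKM as deposited and −0.20 at equal library sums. *Ccl20*, a ligand of CCR6, had 2 to 7 reads in each library and a log2 fold change of 0.61 ± 0.41 (limma, adjusted P = 0.226). *Cxcl12*, the ligand of CXCR4, was above 0 in Al 2 alone, at 0.0319 FPKM.

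As shares of the summed FPKM of the 7 chemokines, which do not depend on the scaling of the libraries, *Cxcl1* held 5.40%, 6.02% and 5.22% without Al and 20.0%, 20.4% and 24.4% with Al. *Ccl7* held 47.7% ± 2.80 and 38.9% ± 2.81 (SD, n = 3 each), and *Ccl2* 40.6% ± 1.11 and 33.6% ± 3.42. For these 3 genes the groups did not overlap, and the exact permutation test gave P = 0.1, the smallest value it can give with 3 against 3. The share of *Ccl5* was 5.90% ± 2.29 and 5.70% ± 3.68 (exact permutation test, P = 1).

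Promoter windows of the RefSeq annotation (GRCm38.p6), from 250 bases before to 50 bases after the start site, were found for 30 of the 38 genes, and 3 of these had more than 1 window. *Ccl2*, *Ccl5*, *Ccl7*, *Plau*, *Plat*, *Mmp2*, *Ereg* and *Hbegf* had none. The windows were searched on both strands for the AP-1 site TGANTCA, the NF-κB consensus site, the C/EBP site TTNNGNAA and the cyclic AMP response element TGACGTCA. None of these motifs is contained in another. Shown first are the windows of the 3 called cytokine and chemokine genes with the largest fold changes, in the direction of transcription, with matches to the AP-1 or NF-κB motif in capitals.

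Lif, chr11:4257318-4257617, plus strand: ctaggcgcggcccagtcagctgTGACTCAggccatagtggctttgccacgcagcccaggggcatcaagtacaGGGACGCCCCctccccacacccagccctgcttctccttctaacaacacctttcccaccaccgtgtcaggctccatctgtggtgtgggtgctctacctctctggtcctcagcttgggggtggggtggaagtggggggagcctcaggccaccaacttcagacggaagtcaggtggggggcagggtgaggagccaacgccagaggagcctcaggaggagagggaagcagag
Cxcl1, chr5:90890995-90891294, plus strand: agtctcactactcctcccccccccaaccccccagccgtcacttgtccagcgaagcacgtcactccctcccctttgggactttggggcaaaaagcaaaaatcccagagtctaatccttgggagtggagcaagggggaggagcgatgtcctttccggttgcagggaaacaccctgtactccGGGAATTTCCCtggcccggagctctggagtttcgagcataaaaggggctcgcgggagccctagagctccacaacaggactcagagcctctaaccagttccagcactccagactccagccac
Il6, chr5:30012864-30013163, plus strand: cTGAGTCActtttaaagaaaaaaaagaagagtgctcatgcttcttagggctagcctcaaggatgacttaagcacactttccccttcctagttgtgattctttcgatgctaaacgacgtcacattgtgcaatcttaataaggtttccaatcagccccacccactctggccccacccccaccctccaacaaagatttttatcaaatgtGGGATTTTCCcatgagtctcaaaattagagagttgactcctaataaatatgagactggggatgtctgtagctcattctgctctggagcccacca

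In *Lif* the capitals mark an AP-1 match that begins at position −228 from the start site and an NF-κB match that begins at −178. In *Cxcl1* they mark a stretch of overlapping NF-κB matches, which begins at −71. In *Il6* an AP-1 match begins at −249 and an NF-κB match at −44. The windows of *Timp2*, called higher, and *Timp3*, called lower, are set beside them as examples from 1 family with opposite directions, and neither holds an AP-1 or NF-κB match.

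Timp2, chr11:118355362-118355661, minus strand: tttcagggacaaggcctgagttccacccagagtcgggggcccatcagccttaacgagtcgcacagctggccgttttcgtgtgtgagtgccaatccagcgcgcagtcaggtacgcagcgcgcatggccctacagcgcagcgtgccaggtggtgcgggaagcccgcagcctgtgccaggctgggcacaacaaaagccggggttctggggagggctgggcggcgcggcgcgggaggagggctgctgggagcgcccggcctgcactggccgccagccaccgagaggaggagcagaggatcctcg
Timp3, chr10:86300162-86300461, plus strand: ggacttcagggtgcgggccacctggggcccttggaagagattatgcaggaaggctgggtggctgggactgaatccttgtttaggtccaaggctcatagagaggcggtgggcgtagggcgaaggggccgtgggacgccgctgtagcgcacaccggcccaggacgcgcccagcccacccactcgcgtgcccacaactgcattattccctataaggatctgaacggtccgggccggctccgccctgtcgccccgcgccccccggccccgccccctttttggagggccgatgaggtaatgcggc

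An AP-1 match was found in 9 of the 30 genes with a window, where 8.97% of all 27025 gene symbols with a window had one. The NF-κB consensus was found in 8 of the 30, where 9.55% of all had it, and only *Il6* and *Lif* among the 30 had both. The C/EBP site was found in 13 of the 30, where 44.1% of all had it, and the cyclic AMP response element in 1 of the 30 (*Areg*), where 2.03% of all had it. An AP-1 or NF-κB match was found in 15 of the 30, and in 17.7% of all gene symbols with a window. Of the genes called higher, 6 of 9 with a window had an AP-1 or NF-κB match, namely *Il6*, *Lif*, *Csf1*, *Cxcl1*, *Plaur* and *Mmp3*. Of the genes called lower, 1 of 2 had one, of those tested and not called 2 of 7, and of those not tested 6 of 12. Matches were thus also found in genes that were next to silent, such as *Mmp13* and *Cxcl2*. A match is a stretch of letters and does not show that a factor was bound.

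**Figure D2:**
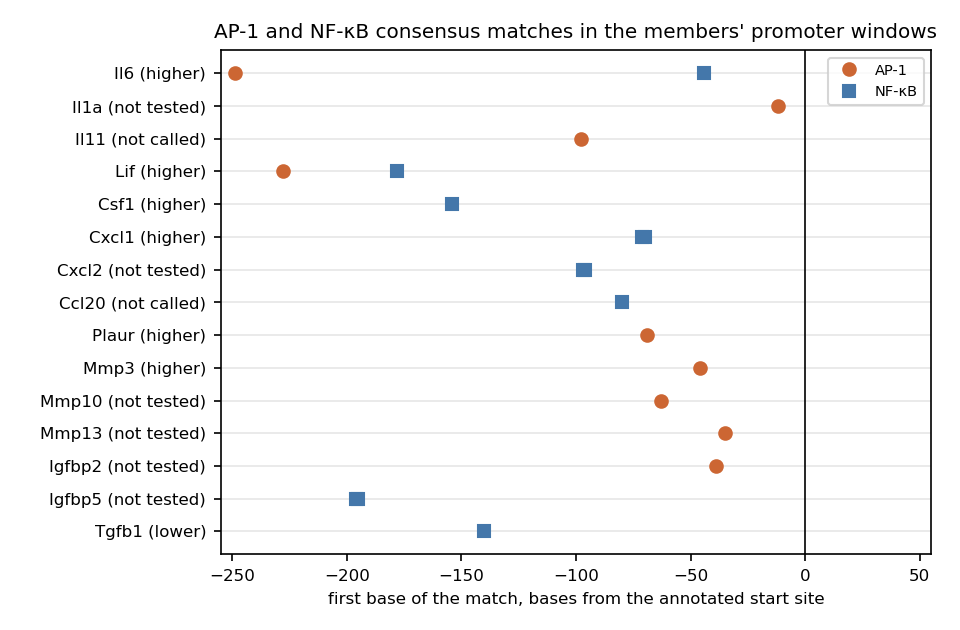
Position of AP-1 (orange circles) and NF-κB (blue squares) consensus matches in the promoter windows of the 15 secretory genes that had any, with the distance of the first base of each match from the annotated start site in bases on the horizontal axis and the result of the test of each gene in brackets. Both kinds occur in genes called higher and in genes that were not tested.

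The AU-rich heptamer TATTTAT, which is part of elements that make mRNAs short-lived, was counted in the 3′ untranslated region of 1 GENCODE transcript a gene. It occurred at least once in 24 of the 38 secretory genes and in 25.8% of 12246 tested genes with such a region. Among the secretory genes it occurred in 6 of the 11 called higher, in 7 of the 15 other tested genes and in 11 of the 12 that were not tested. The 25.8% covers tested genes alone, so the 12 untested genes have no like share beside them. *Csf2* had 9 copies, *Cxcl2* 7, *Cxcl1* 6, *Il11*, which was not called, 6 as well, and *Lif* 5. *Timp1*, *Timp2*, *Igfbp6*, *Plaur* and *Mmp3*, which were called higher too, had 0.

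In the plasminogen system, which turns plasminogen into the broad protease plasmin at the cell surface, 1 of 4 tested genes was called. *Plaur*, the receptor that holds urokinase on the membrane, measured 3.70, 4.27 and 6.498 scaled FPKM without Al and 8.63, 14.2 and 10.7 with Al. Its groups did not overlap, with control 3 and Al 1 the closest. Al over control gave a log2 fold change of 1.21 ± 0.24 (SE, limma, adjusted P = 0.00224) and the call was lost, at 0.43, when each library was scaled to the same sum.

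*Plau*, which encodes urokinase itself, stood at 4.08, 3.67 and 2.11 scaled FPKM in control libraries and at 4.49, 2.42 and 2.16 in Al libraries, with groups that overlapped. Its log2 fold change of −0.14 ± 0.32 (limma, adjusted P = 0.72) turned positive under quantile normalization and without control 1 or Al 3. With FPKM as deposited it was −0.61, and at equal library sums it was −0.90 and *Plau* was called lower (limma, adjusted P = 0.0262). *Plat*, the tissue-type activator, was 5.52 ± 0.717 without Al and 7.38 ± 0.949 with Al (SD, n = 3 each). That is a log2 fold change of 0.41 ± 0.15 (limma, adjusted P = 0.0381), which was under the size required. It was −0.067 with FPKM as deposited, −0.36 at equal sums, and 0.62 with a call under quantile normalization (limma, adjusted P = 0.00483). *Serpine2*, an inhibitor of plasminogen activators and thrombin, had 16, 23 and 6 reads in control libraries and 9, 2 and 1 in Al libraries, for a log2 fold change of −0.38 ± 0.48 (limma, adjusted P = 0.504).

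The ratio of *Plau* to *Plaur* FPKM was 1.10, 0.861 and 0.325 in control libraries and 0.520, 0.170 and 0.203 in Al libraries. Control 3 lay among the Al values, and the difference of −1.37 on the log2 scale gave P = 0.2 in the exact permutation test. The ratio of *Plau* to *Serpine2* differed by 0.82 (P = 0.3, exact permutation test) on the few reads of *Serpine2*.

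Among the matrix metalloproteinases, 1 of 3 tested genes was called, and it was the lowest of them. *Mmp3*, stromelysin-1, had 2, 2 and 12 reads in control libraries and 15, 9 and 36 in Al libraries, or 0.0247, 0.0213 and 0.128 against 0.391, 0.282 and 1.02 scaled FPKM. The highest of each group was replicate 3, and the groups did not overlap. *Mmp3* had a log2 fold change of 1.98 ± 0.48 (SE, limma, adjusted P = 0.00668), and it was 0.54 and no longer called with a pseudocount of 1. Its control level was under 0.1, so the gene reached the test through its Al values.

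*Mmp14*, the membrane-bound enzyme that activates pro-MMP2, was the second most abundant of the proteases and inhibitors. It measured 205, 192 and 170 scaled FPKM without Al and 262, 254 and 299 with Al. These values did not overlap, yet the log2 fold change of 0.52 ± 0.14 (limma, adjusted P = 0.00906) was under the size required, and it was −0.17 under quantile normalization and −0.26 at equal library sums. *Mmp2*, gelatinase A, stood at 85.1, 73.3 and 53.1 and at 113, 92.4 and 83.8, a log2 fold change of 0.46 ± 0.18 (limma, adjusted P = 0.054), which turned negative with FPKM as deposited (−0.023), at equal sums (−0.32) and under quantile normalization (−0.054). It was 0.26 without control 3, and 0.60 with a call without control 1 (limma, adjusted P = 0.028). The shares of both in the summed FPKM of the 5 enzymes stayed within the spread of the libraries, at 73.0% ± 2.78 and 73.6% ± 3.996 for *Mmp14* (exact permutation test, P = 0.8).

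*Mmp10* and *Mmp13* lie in the same stretch as *Mmp3* on chromosome 9, *Mmp10* at a distance of 46.4 kb. *Mmp10*, stromelysin-2, had 0, 0 and 10 reads in control libraries and 1, 1 and 14 in Al libraries, so that nearly all of its reads came from replicate 3 of either group. *Mmp13*, collagenase-3, had 1 read in control 2 and 4 in Al 3.

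The 3 TIMPs were all called, in both directions. *Timp2*, which binds MMP14 and takes part in the activation of pro-MMP2, was the most abundant of the 38 genes. It measured 216, 206 and 259 scaled FPKM in control libraries and 879, 837 and 481 in Al libraries. All Al values were above all control values, with Al 3 clearly below the other Al libraries. For *Timp2* the log2 fold change was 1.65 ± 0.25 (SE, limma, adjusted P = 0.000493), or 3.14-fold. It was 1.94 without Al 3, 0.86 at equal library sums and 0.82 under quantile normalization, and the call held in each.

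*Timp1*, an inhibitor of most soluble metalloproteinases, stood at 24.4, 22.2 and 35.8 scaled FPKM without Al and at 140, 116 and 44.8 with Al. Here too Al 3 was the lowest of its group and came within reach of control 3. For *Timp1* the log2 fold change was 1.74 ± 0.38 (SE, limma, adjusted P = 0.00407). It ranged from 0.95 at equal library sums to 2.25 without Al 3, and the call held in each alternative.

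*Timp3*, the TIMP that stays bound to the matrix and also inhibits ADAM17, fell. It measured 45.0, 41.2 and 33.8 scaled FPKM in control libraries and 25.2, 14.3 and 11.98 in Al libraries, without overlap. The log2 fold change was −1.28 ± 0.25 (SE, limma, adjusted P = 0.00205) and lay between −2.07 and −1.05 under all alternative settings. As a share of the 3 TIMPs, *Timp3* went from 15.8%, 15.3% and 10.3% in the control group to 2.41%, 1.48% and 2.23% with Al, and *Timp2* from 76.97% ± 1.64 to 86.7% ± 2.64 (SD). For both the exact permutation test gave P = 0.1, the smallest possible, while the share of *Timp1* overlapped between the groups (9.24% ± 1.45 and 11.2% ± 2.63, P = 0.3).

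The ratio of *Mmp14* to *Timp2* FPKM was 0.950, 0.935 and 0.656 in control libraries and 0.298, 0.304 and 0.622 in Al libraries. Control 3 and Al 3 came close to each other without overlap. The difference was −1.12 on the log2 scale (exact permutation test, P = 0.1, the smallest possible) and −1.47 without Al 3. The ratio of *Mmp2* to *Timp2* was lower by a similar amount, −1.18, with mean log2 ratios of −1.70 ± 0.51 without Al and −2.89 ± 0.33 with Al (SD, P = 0.1, exact permutation test). Both ratios are free of the scaling of the libraries.

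IGF-binding proteins carry IGF-1 and IGF-2 and set how much of them reaches the receptor. Of the 6, 3 were well expressed, 1 of these was called, and the other 3 were at or near 0. *Igfbp6*, which prefers IGF-2, measured 111, 116 and 154 scaled FPKM without Al and 503, 519 and 356 with Al. The gap between the groups was wide. *Igfbp6* had a log2 fold change of 1.85 ± 0.20 (SE, limma, adjusted P = 8.09e-05), or 3.60-fold, and the direction and the call held under every alternative, with a smaller size at equal library sums (1.06) and under quantile normalization (1.14).

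*Igfbp4*, an inhibitor of IGF action that PAPP-A cleaves, stood at 117, 119 and 108 scaled FPKM in control libraries and at 206, 145 and 94.2 in Al libraries. Al 3 lay below every control library and Al 1 and Al 2 above. The log2 fold change of 0.30 ± 0.25 (limma, adjusted P = 0.31) was −0.19 with FPKM as deposited, −0.36 under quantile normalization and −0.49 at equal sums, and 0.60 with a call without Al 3. *Igfbp7*, a secreted protein with low affinity for IGFs that has been tied to senescence, measured 41.2, 47.2 and 44.3 against 121, 65.5 and 47.8, just without overlap. At a log2 fold change of 0.71 ± 0.28 its adjusted P was 0.0547 (limma). It was 1.02 and called without Al 3 (adjusted P = 0.00385), 0.35 without Al 1, and −0.075 at equal library sums.

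Within the family *Igfbp4* held 43.5%, 42.1% and 35.3% of the summed FPKM in control libraries and 24.9%, 19.9% and 18.9% in Al libraries. *Igfbp6* held 44.2% ± 5.27 and 67.7% ± 6.1998 (SD, n = 3 each). Both sets of values were free of overlap (exact permutation test, P = 0.1, the smallest possible). *Igfbp4* and *Igfbp6* were at about the same level in control 1 and control 2, and *Igfbp6* was the highest in control 3 and in each Al library.

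*Igfbp5*, the most conserved of the family and often high in senescent cells, was low, with fewer reads in the Al libraries. It had 12, 26 and 21 reads in control libraries and 0, 1 and 0 in Al libraries. Its mean was under 0.1 FPKM, so it was not tested. Without the filter on low values limma gave a log2 difference of −0.68 (adjusted P = 0.00679), a size that depends on the pseudocount. Summed over libraries and set against their depth and size factors, 1 read against 59 is a ratio of 0.0431 with an exact 95% interval of 0.00107 to 0.25, which covers counting error only. *Igfbp2*, its neighbour at a distance of 5.59 kb on chromosome 1, was above 0 in control 2 alone (0.0974 FPKM), and *Igfbp3*, the main carrier in blood, was the only one of the 38 genes listed at 0 in all 6 libraries.

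**Figure D3:**
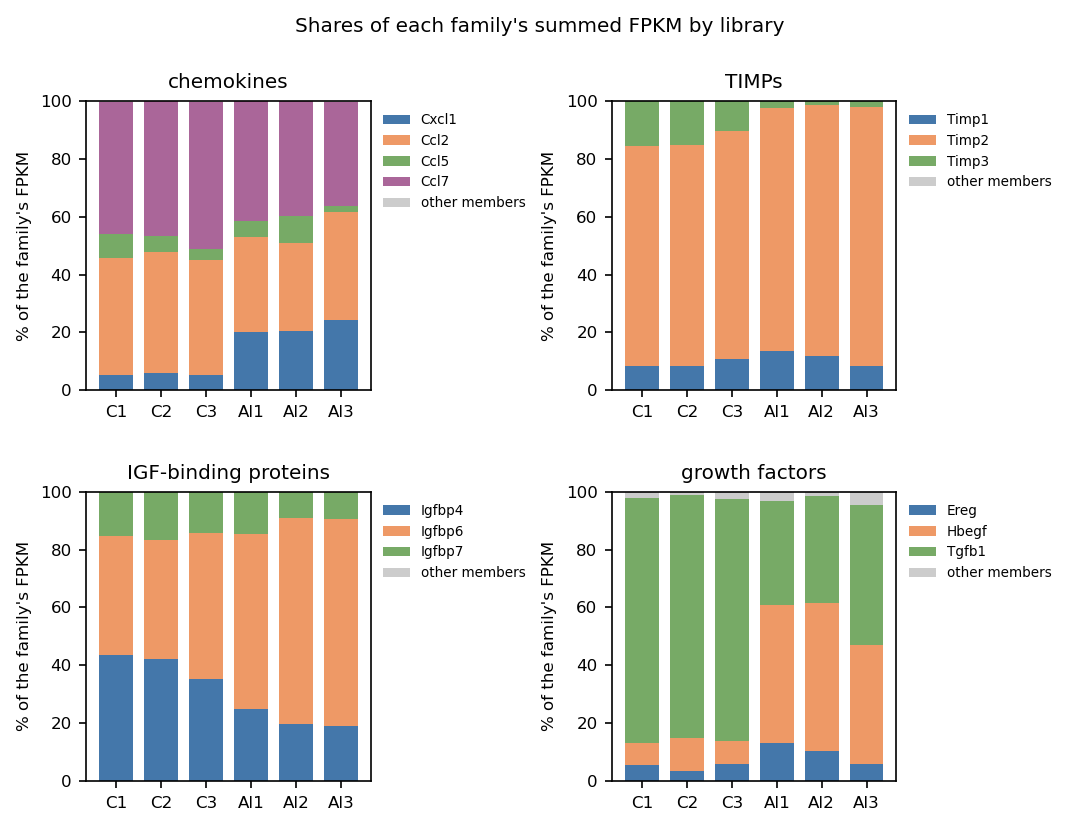
Share of each gene in the summed FPKM of its family, in percent, for chemokines, TIMPs, IGF-binding proteins and growth factors, with 1 bar for each of control 1 to 3 (C1 to C3) and Al 1 to 3. The Al bars hold more *Cxcl1*, *Igfbp6* and *Hbegf*, and less *Timp3*, *Igfbp4* and *Tgfb1*, than the control bars.

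Of the growth factors, 2 rose and 1 fell among 4 tested. *Hbegf*, a membrane-anchored ligand of the EGF receptor that is set free by shedding, measured 1.31, 1.83 and 1.37 scaled FPKM without Al and 9.48, 11.5 and 10.8 with Al, tight within each group and far apart between them. *Hbegf* had a log2 fold change of 2.75 ± 0.16 (SE, limma, adjusted P = 8.11e-06), or 6.71-fold, and ranged from 1.99 to 2.88 over the alternatives.

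*Ereg* and *Areg*, which encode epiregulin and amphiregulin, are ligands of the same receptor and lie 45.95 kb apart on chromosome 5, in the same stretch as *Cxcl1* and *Cxcl2*. *Ereg* stood at 0.980, 0.564 and 1.03 scaled FPKM in control libraries and at 2.62, 2.32 and 1.54 in Al libraries, without overlap. Its log2 fold change was 1.25 ± 0.28 (SE, limma, adjusted P = 0.00464) and dropped to 0.52, with no call, at equal library sums. *Areg* had 15, 4 and 27 reads without Al and 16, 7 and 29 with Al, and its scaled values overlapped. At 1.21 ± 0.53 the log2 fold change of *Areg* was similar in size to that of *Ereg*, with an adjusted P of 0.0755 (limma). It was 0.72 without control 2, and the gene was called without Al 2 (1.63, adjusted P = 0.0373) and with a replicate block (adjusted P = 0.0141, limma).

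*Tgfb1*, the gene of transforming growth factor-β1, was 14.8, 13.5 and 14.4 scaled FPKM in control libraries and 7.12, 8.30 and 12.7 in Al libraries. The control values were close together, and Al 3 lay just below them. The log2 fold change was −0.64 ± 0.19 (SE, limma, adjusted P = 0.0175), and the call was lost without control 1 (−0.62), without Al 1 (−0.47) and without Al 2 (−0.57). At equal library sums it was −1.42. *Tgfb1* held 84.1% ± 0.529 of the family's summed FPKM without Al and 40.4% ± 6.94 with Al, while *Hbegf* went from 8.94% ± 2.12 to 46.7% ± 5.14 (SD, n = 3 each, exact permutation test, P = 0.1 for both, the smallest possible). In Al 1 and Al 2 *Hbegf* was above *Tgfb1*, and in the other 4 libraries it was below. *Hgf*, hepatocyte growth factor, was above 0 in control 1 alone (0.0507 FPKM), and *Fgf2*, basic fibroblast growth factor, had 3, 5 and 0 reads in control libraries and 1, 0 and 0 in Al libraries.

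**Figure D4:**
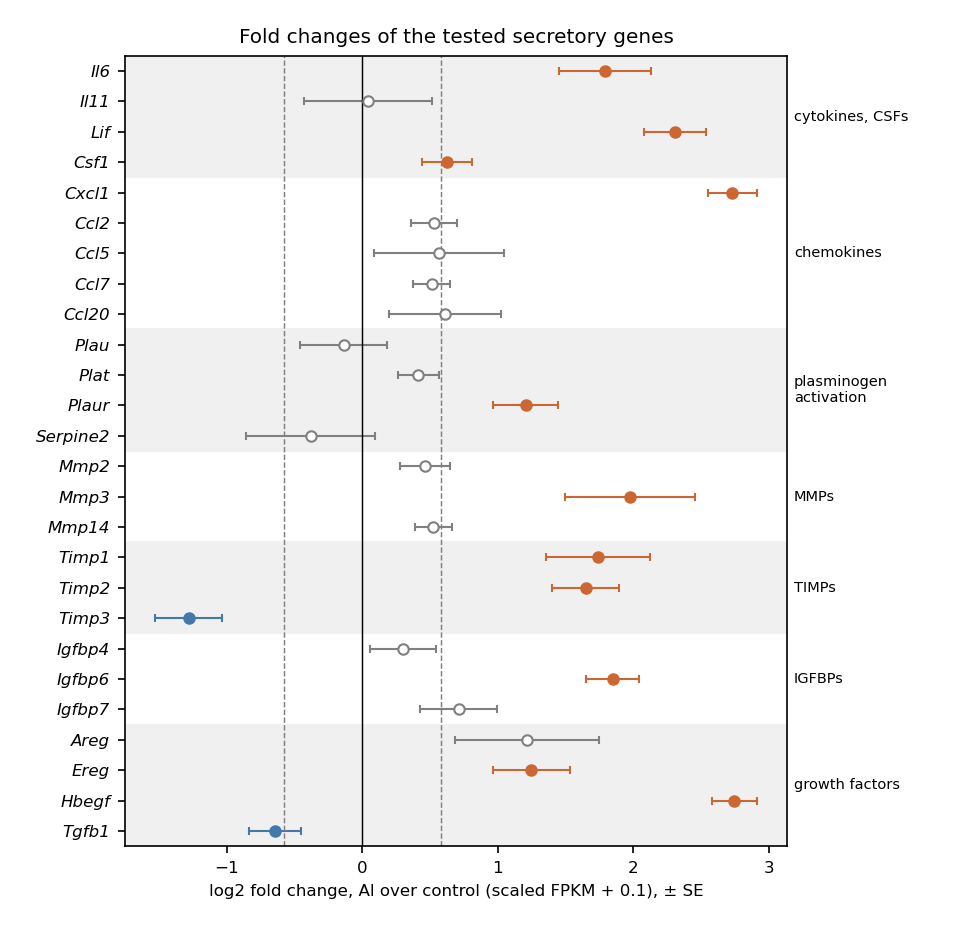
Log2 fold change of Al over control on the scale of scaled FPKM + 0.1, with SE from limma, for the 26 tested secretory genes, grouped by family; filled points were called (orange higher, blue lower), open points were not, and dashed lines mark the required size of 0.58. The points reach from −1.28 for *Timp3* to 2.75 for *Hbegf*, and 22 of the 26 lie above 0, where the median over all tested genes is 0.03. Of these 22, 4 turn with FPKM as deposited and 10 when each library is scaled to the same sum.

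The 12 genes under 0.1 FPKM were *Il1a*, *Il1b*, *Csf2*, *Cxcl2*, *Cxcl12*, *Mmp10*, *Mmp13*, *Igfbp2*, *Igfbp3*, *Igfbp5*, *Hgf* and *Fgf2*. A value of 0 allows up to 3 reads, which for the 7 of these genes that were above 0 in more than 1 library is between 0.0115 FPKM for *Igfbp5* in the deepest library and 0.147 for *Fgf2* in the shallowest. Absence was thus not shown, and differences in these genes were not detectable at this depth, apart from the reads of *Igfbp5*. For *Il1b*, *Cxcl12*, *Igfbp2* and *Hgf*, which were above 0 in 1 library each, the number of reads could not be settled from the values.

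**Figure D5:**
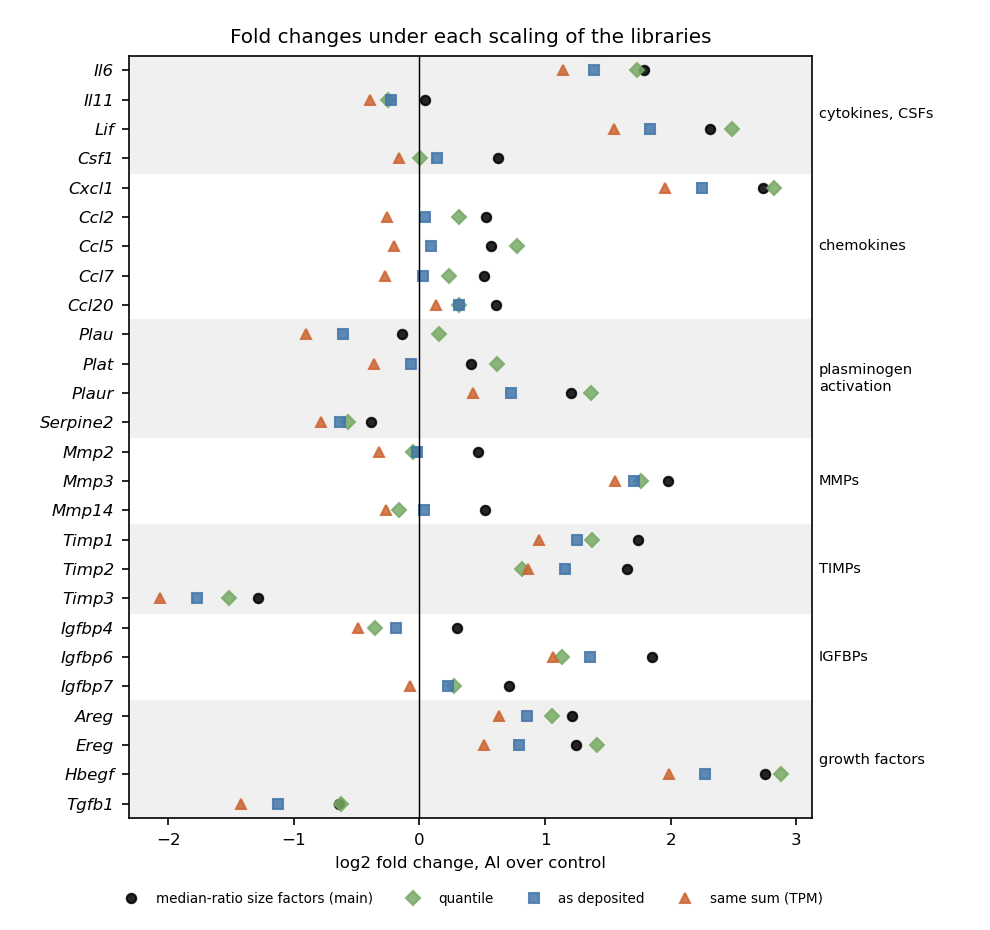
Log2 fold change of each tested secretory gene with size factors (black circles), quantile normalization (green diamonds), FPKM as deposited (blue squares) and libraries scaled to the same sum (orange triangles). *Il6*, *Lif*, *Cxcl1*, *Timp1*, *Timp2*, *Igfbp6* and *Hbegf* stay above 0 and *Timp3* below it by a wide margin, whereas *Csf1*, *Mmp2*, *Mmp14*, *Igfbp4* and the *Ccl* genes other than *Ccl20* spread across or near 0.

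Of 33 receptors of these factors, 21 were tested, 1 was called higher and 4 lower, and the median log2 fold change was −0.10. These are 4.76% and 19.0% of those tested, beside 25.5% and 23.7% of all tested genes. Left unscaled, 1 was called higher and 10 lower, beside 1736 and 5321 of all 12889 tested genes. *Il11ra1*, the receptor chain of interleukin-11, went from 12.9 ± 2.25 to 5.24 ± 1.04 scaled FPKM (SD, n = 3 each), or −1.29 on the log2 scale (limma, adjusted P = 0.00036). *Egfr*, the receptor of HBEGF, epiregulin and amphiregulin, went from 2.72 ± 0.999 to 1.05 ± 0.153, or −1.24 (limma, adjusted P = 0.00441), and *Erbb2*, its partner, had −0.59 (adjusted P = 0.00999). *Il1r1*, the interleukin-1 receptor, had −0.93 (limma, adjusted P = 0.00253). *Fgfr4*, singled out after its values were seen as the only receptor called higher, had 0, 0 and 0.0467 scaled FPKM in control libraries and 1.17, 0.824 and 1.26 in Al libraries (limma, adjusted P = 5.36e-05), so it reached the test through its Al values and the size of its fold change rests on the pseudocount. The receptors *Cxcr4* and *Ccr1* were listed at 0 in all libraries of the Al group, as were *Tgfa* and *Btc* among the other ligands of the EGF receptor family.

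Of 36 regulators of secretory genes, all tested, 16 were called higher and 4 lower, with a median log2 fold change of 0.37. That is 44.4% and 11.1%, beside 25.5% and 23.7% of all tested genes. With FPKM as deposited the counts were 12 and 11, beside 1736 and 5321 of all 12889 tested genes. *Fosl1*, a subunit of AP-1, went from 2.51 ± 0.882 to 20.4 ± 2.64 scaled FPKM (SD, n = 3 each), or 3.02 on the log2 scale (limma, adjusted P = 1.76e-05). *Nfkbia*, the inhibitor and a known target of NF-κB, had 2.19 (adjusted P = 4.68e-06), *Fos* 2.06 (adjusted P = 3.47e-05), *Jun* 1.67 (adjusted P = 1.51e-05) and *Cebpb* 1.11 (limma, adjusted P = 0.000441). Of the 4 called lower, *Stat3*, which carries the signals of IL-6 and LIF, had −1.25 (adjusted P = 0.000567) and *Ets2* −1.03 (limma, adjusted P = 0.000338), and the others were *Tlr2* and *Il1r1*. *Rela*, the p65 subunit of NF-κB, was 40.4 ± 3.72 and 47.8 ± 6.85, a log2 fold change of 0.23 that did not pass the test (limma, adjusted P = 0.135) and was −0.25 with FPKM as deposited.

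Proteins that shed, activate or break down the secreted factors gave 7 genes higher and 3 lower of 21 tested, with a median of 0.21. The shares of 33.3% and 14.3% stand beside 25.5% and 23.7% of all tested genes, and *Ltbp2*, among those higher, reached the test through its Al values. With FPKM as deposited the counts were 4 and 6, beside 1736 and 5321 of all 12889 tested genes. *Adam17*, the enzyme that sheds HBEGF, amphiregulin and other ligands, measured 13.3 ± 1.29 and 20.7 ± 0.932 scaled FPKM, a log2 fold change of 0.64 (limma, adjusted P = 0.000858) that was 0.15 with FPKM as deposited. *Anxa2* and *S100a10*, which together bind plasminogen at the cell surface, had 2.25 (adjusted P = 0.000233) and 1.13 (adjusted P = 0.00469, limma), with Al 3 the lowest Al library for both. *Ltbp1*, which anchors latent transforming growth factor-β in the matrix, had 1.75 (limma, adjusted P = 2.98e-05).

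Among 71 other genes, all but *Ccna2* often listed with the secretory phenotype, 46 were tested, 19 were higher and 10 lower, with a median of 0.28. Some encode proteins that stay in the cell, such as *Ptgs2* and *Gem*. *Ccna2*, the gene of cyclin A2, is counted among the 71 and the 19 only because the symbol *Ccn1* was matched to it as a synonym. The gene meant by *Ccn1* was not looked at. With FPKM as deposited 13 of the list were higher and 14 lower, beside 1736 and 5321 of all 12889 tested genes. Of the 46 tested, 41.3% were higher and 21.7% lower, beside 25.5% and 23.7% of all tested genes. *Tgfb2* and *Il10*, among those higher, reached the test through their Al values, and *Lcp1*, among those lower, through its control values. *Ptgs2*, the cyclooxygenase that makes prostaglandins, went from 10.99 ± 6.599 to 80.6 ± 10.4 scaled FPKM (SD), a log2 fold change of 3.01 (limma, adjusted P = 0.000102). *Tnfrsf12a*, a receptor of the TNF family, had 2.26 (adjusted P = 1.82e-05), *Cxcl10*, a chemokine of the interferon response, 2.12 (adjusted P = 5.92e-05), and *Inha*, the inhibin α chain, −1.95 (limma, adjusted P = 0.000126). Of 3 tested among 8 further EGF-family ligands, 2 were called higher (*Egf* and *Nrg4*), both with a mean under 1 FPKM, and neither was called with FPKM as deposited. All tested genes were called higher at 25.5%, and *Egf* and *Nrg1* are also among the 71 genes above.

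Of 6 genes used as marks of the senescence arrest itself, 4 were tested, and *Cdkn1a* and *Lmnb1* were called higher, where 25.5% of all tested genes were. *Lmnb1* and *Mki67* are marks of arrest when they are lower. *Cdkn1a*, the gene of the cell cycle inhibitor p21, measured 90.8, 88.5 and 129 scaled FPKM without Al and 320, 383 and 240 with Al, a log2 fold change of 1.61 ± 0.21 (limma, adjusted P = 0.000238). *Cdkn2a*, the gene of p16, and its neighbour *Cdkn2b* were listed at 0 in all 6 libraries. *Lmnb1*, the gene of lamin B1, whose loss is used as a mark of senescence, was higher with Al, at 59.1, 60.6 and 56.3 against 137, 135 and 103 (log2 fold change 1.08 ± 0.13, limma, adjusted P = 0.00016). *Mki67*, a marker of dividing cells, stood at 55.2, 57.2 and 54.1 against 81.3, 78.2 and 83.9, without overlap, at a log2 fold change of 0.55 ± 0.091 that was under the size required (limma, adjusted P = 0.000928) and was 0.059 with FPKM as deposited.

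Markers of other cell types are given for comparison. The 8 microglia and leukocyte markers summed to 34.98 to 42.6 scaled FPKM in control libraries and 26.9 to 93.0 in Al libraries, nearly all of it *Tmem119*, while *P2ry12* was listed at 0 in every library and *Ptprc*, the pan-leukocyte gene, reached at most 0.0319. The 5 astrocyte markers summed to 11.998 to 19.7 and 1.95 to 2.90, nearly all *Slc1a3*, with *Aqp4* at 0, and the 9 neuron markers to 6.49 to 8.11 and 4.79 to 8.08. The 5 oligodendrocyte markers summed to 0.171 to 0.303 and 0.498 to 1.39, and the 4 endothelial markers to 0.00349 to 0.155 and 0.464 to 0.505. *Sox10* and *Pecam1* of these lists were called higher (limma, adjusted P = 0.00115 and 0.0273), both with a control mean under 0.1, so they reached the test through their Al values. Of the microglia and leukocyte markers *Cx3cr1* and *Cd68* were called higher among 5 tested. *Cx3cr1* reached the test through its Al values, with at most 0.0771 scaled FPKM in control libraries, and with FPKM as deposited 1 marker was higher and 1 lower. Of the astrocyte markers *Slc1a3* was called lower among 3. Of all tested genes 25.5% were called higher and 23.7% lower. With FPKM as deposited 1736 of all 12889 were called higher and 5321 lower. The part of these markers in the results was not tested. Of the 6 fibroblast and mesenchymal markers, *Col1a1* was called higher (log2 fold change 0.92, limma, adjusted P = 0.0219) and *Pdgfra* lower (−1.22, adjusted P = 0.00709), and with FPKM as deposited 0 were higher and 2 lower, *Col1a1* standing at 0.43.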

How the data were processed

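RNA was measured in 6 libraries, 3 a group. Per the study's methods, reads were trimmed with Trimmomatic, cleared of ribosomal RNA with SortMeRNA and aligned to GRCm38/mm10 with HISAT2; the submitters' processing notes name fastp, HISAT2, HTSeq and GRCm39 instead, and neither names an annotation. The authors deposited FPKM, 1 value per gene symbol and library, without scaling between libraries.

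Libraries labelled C were taken as control and those labelled M as Al, from the series' design. For 17686 of 17688 genes above 0, the deposited FPKM were whole multiples of the value of 1 read (tolerance 2e-09 of the read count), which gave the reads and the library totals. For 1611 genes above 0 in 1 library, such reads rest on an annotated length and none are printed.

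Values were divided by median-of-ratios size factors (genes above 0 in every library, mean of at least 1 FPKM). The 12889 genes with a mean of at least 0.1 FPKM were tested with limma 3.58.1 (lmFit, eBayes with trend, R 4.3.3) on log2(scaled FPKM + 0.1), which understates changes of low genes. P values were Benjamini-Hochberg adjusted over all tested genes. Shares and ratios used two-sided exact permutation tests. The procedure was tested on simulated data. Alternatives covered scaling, pseudocount, filter, trend, replicate block, thresholds, voom on the recovered reads and each library left out. Promoters came from RefSeq (GRCm38.p6) and untranslated regions from GENCODE. Python 3.11.15 was used.

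The 38 genes, the other lists and the rule for naming genes were chosen with earlier results of these data known. All 38 genes were named, and of each other list up to 4 called genes with the largest fold change, a mean of at least 1 FPKM and no overlap between groups, together with *Cdkn1a*, *Cdkn2a*, *Cebpb*, *Rela* and *Adam17*; other names were chosen after their values were seen, and some genes of these lists are not reported here. The immunoprecipitated libraries were not analysed here.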

Additional observations from a re-analysis of the deposited data

How the results depend on the processing

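Of the 13 called secretory genes, 8 (*Il6*, *Lif*, *Cxcl1*, *Timp1*, *Timp2*, *Timp3*, *Igfbp6* and *Hbegf*) kept direction and call under every alternative that could be run for them. Under 18 alternatives, 8 to 15 of the 38 genes were called higher and 1 to 3 lower. With each library left out in turn, the count of genes called lower ranged from 1 to 2; it was 1 without control 1, Al 1 or Al 2, and 1 with a required log2 fold change over 1. Over all tested genes 3291 were higher and 3053 lower with the size factors, 1736 and 5321 with FPKM as deposited, 1141 and 6734 with libraries scaled to the same sum, and 2028 and 1784 with a log2 fold change over 1.

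Among the secretory genes, directions turned only for genes with no call and for *Csf1*. With FPKM as deposited the log2 fold change was −0.23 for *Il11*, −0.067 for *Plat*, −0.023 for *Mmp2* and −0.19 for *Igfbp4*. At equal library sums it was −0.39 for *Il11*, −0.16 for *Csf1*, −0.25 for *Ccl2*, −0.20 for *Ccl5*, −0.27 for *Ccl7*, −0.36 for *Plat*, −0.32 for *Mmp2*, −0.26 for *Mmp14*, −0.49 for *Igfbp4* and −0.075 for *Igfbp7*. Under quantile normalization it was −0.25 for *Il11*, 0.16 for *Plau*, −0.054 for *Mmp2*, −0.17 for *Mmp14* and −0.36 for *Igfbp4*. *Il11* was −0.27 without control 2 and −0.34 without Al 3, and *Plau* 0.029 without control 1 and 0.067 without Al 3; with each library left out in turn *Il11* ranged from −0.34 to 0.37 and *Plau* from −0.45 to 0.067. The cause was not tested.

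Both groups carry replicate numbers 1 to 3. The deviations of same-numbered libraries from their group means correlated at −0.033, −0.026 and −0.073. These values gave no sign of pairing over all tested genes. They cannot exclude that libraries were prepared in numbered sets, and the labels do not say. With a replicate block 13 secretory genes were called higher and 2 lower, *Areg* and *Igfbp7* being added, and 3248 and 3007 of all tested genes. With voom on the recovered reads 12 secretory genes were higher and 2 lower, and 3271 and 3114 of all.

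Low counts limit *Il6*, *Il11*, *Ccl20*, *Serpine2*, *Mmp3*, *Areg* and the 12 genes under 0.1 FPKM, and the Al libraries were the shallower ones.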
